A study of Mus musculus with 4 samples.

Results

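The plus strand of the mouse mitochondrial chromosome was described by GRO-seq in 3T3-L1 cells, a mouse preadipocyte line. GRO-seq (global run-on sequencing) lets polymerases that are already on DNA extend and label their RNA, so reads mark RNA being made, by position and strand. Reads on the plus strand of the mitochondrial chromosome were counted by their 5′ end in 326 bins of 50 bp. All 326 bins held a read, out of 7165932 strand-specific 50 bp bins with a read in the whole series. Bins were grouped by their centre into 12 genes or gene pairs and the control region (284 bins), which left 42 bins between genes. The groups were cells with a control siRNA (siCTL) without FCCP, siCTL with FCCP for 3 hours, cells with an siRNA against GPS2 (siGPS2) without FCCP, and siGPS2 with FCCP for 3 hours. GPS2 is a cofactor of transcription that also acts outside the nucleus, and FCCP is a compound that uncouples mitochondrial respiration from ATP synthesis. Each group is 1 library of 4199999 to 4200001 reads, so intervals below are 95% counting intervals, which compare libraries, not conditions, and no p-value can be given.

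The mitochondrial chromosome is a small circle that is transcribed from both strands by its own polymerase, POLRMT. Transcription of the strand described here starts in the control region, runs first through the rRNA genes Rnr1 and Rnr2, and goes on through the mRNA genes in one long transcript. Most genes are flanked by tRNA genes, and the long transcript is cut at the tRNAs to release the rRNAs and mRNAs. The mRNAs encode subunits of respiratory complexes I, III and IV and of ATP synthase. GRO-seq is made from nuclei, and mitochondrial reads in it come from mitochondria that stay with them.

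Sequences at the gene ends are shown first because the clearest difference between the siRNAs lay there. They are the last 60 bases of 5 mRNA genes, 5′ to 3′ on the plus strand, from GENCODE transcripts of build GRCm38. Capitals mark the bases 50 to 41 before the last base, where read 5′ ends were densest in the siGPS2 libraries.
mt-Nd1, chrM:3648-3707: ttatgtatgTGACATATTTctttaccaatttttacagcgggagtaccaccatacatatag
mt-Co2, chrM:7637-7696: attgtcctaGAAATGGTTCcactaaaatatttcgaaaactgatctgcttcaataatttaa
mt-Nd3, chrM:9747-9806: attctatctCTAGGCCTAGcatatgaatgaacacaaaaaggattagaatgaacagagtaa
mt-Nd4, chrM:11485-11544: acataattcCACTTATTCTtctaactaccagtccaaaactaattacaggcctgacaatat
mt-Cytb, chrM:15229-15288: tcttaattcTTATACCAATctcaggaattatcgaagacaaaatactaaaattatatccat
At Co1 and Nd5 the pile-up went past the annotated end. The nearer of these, mt-Co1, is shown from its last 20 bases on, with capitals for the 66 bases beyond it, which are the complement of the tRNA gene mt-Ts1 on the other strand.
mt-Co1, chrM:6853-6938: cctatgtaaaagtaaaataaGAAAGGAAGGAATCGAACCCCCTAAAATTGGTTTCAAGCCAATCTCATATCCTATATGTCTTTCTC
The tRNA gene mt-Tl1, between Rnr2 and Nd1, follows the end of Rnr2, where read density dropped in each library.
mt-Tl1, chrM:2676-2750: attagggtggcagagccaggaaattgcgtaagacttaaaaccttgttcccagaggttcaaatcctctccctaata

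The plus strand held 6318 reads in siCTL, 4932 in siCTL with FCCP, 9265 in siGPS2 and 5912 in siGPS2 with FCCP, and 77.9%, 73.5%, 85.7% and 83.2% of the reads on the mitochondrial chromosome. The siGPS2 library without FCCP was the highest and siCTL with FCCP the lowest. Reads with a deposited score (read as mapping quality) of 10 or more numbered 3270, 2625, 4921 and 3166. Between 46.5% and 48.2% of plus-strand reads thus fell below 10, against 17.7% to 18.1% of all reads in the siCTL libraries and 44.9% to 45.3% in the siGPS2 libraries. The siCTL library came from another sequencing run and lane than the other 3, as the read names show, so its comparisons cannot be told apart from the run. The siGPS2 pair, and the 2 libraries with FCCP, shared a lane. No 2 reads of a library had the same start, end and strand, which limits the count at a crowded position: 27.9% to 49.6% of plus-strand positions held a read.

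**Figure D1:**
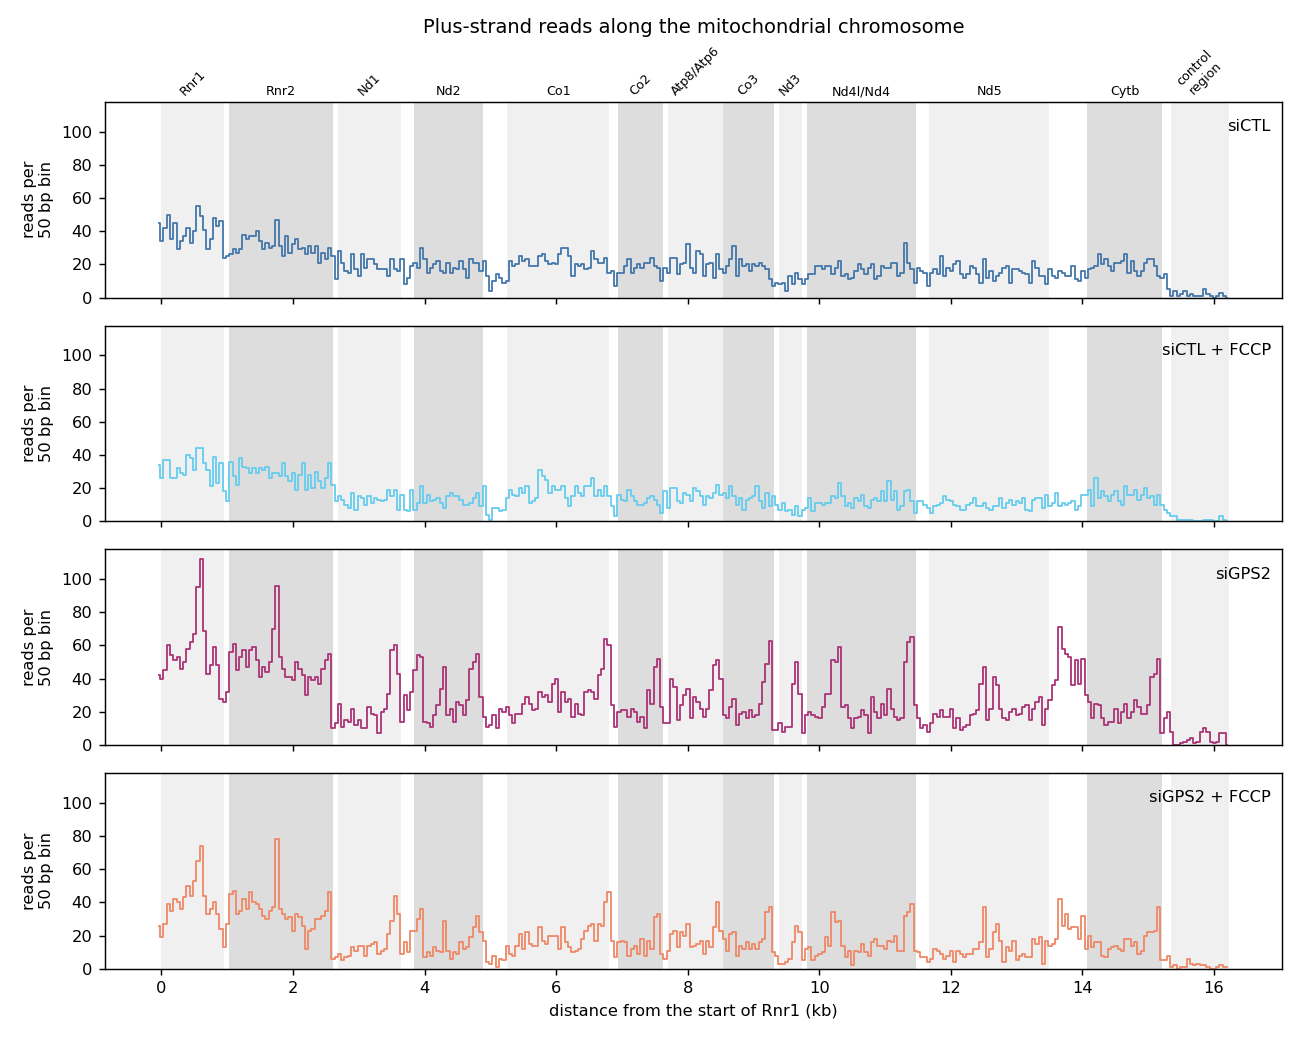
Plus-strand reads per 50 bp bin (y axis) along the mitochondrial chromosome, by distance from the start of Rnr1 in kb (x axis), 1 panel per library; shading marks the genes. The rRNA genes stand highest in every library, and the siGPS2 panels show peaks at the right edge of most mRNA genes that the siCTL panels lack.

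The rRNA genes carried 1.90 to 2.37 times the read density of the mRNA genes in the 4 libraries. Levels here are raw reads per kb in each library, with no scale between libraries. Together Rnr1 and Rnr2 had 692.4 reads per kb in siCTL, 602.4 in siCTL with FCCP, 1048 in siGPS2 and 745.2 in siGPS2 with FCCP. The mRNA genes had 365.2, 271.4, 505.3 and 314.7 reads per kb. The ratio of these densities was 1.90, 2.22, 2.07 and 2.37, lowest in siCTL and highest in siGPS2 with FCCP. On reads with a score of 10 or more, and against Nd1, Nd2, Nd5 and Cytb, it was 1.69, 2.14, 2.14 and 2.46.

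Rnr1 (positions 70 to 1024 in the mm8 numbering of the files), the RNA of the small ribosomal subunit, had 767 reads in siCTL, 622 when FCCP was added, 1088 in siGPS2 and 777 when FCCP was added there, an order kept below. Its density was 807.4, 654.7, 1145 and 817.9 reads per kb, the highest of the genes in each library. Rnr2 (1094 to 2675), the RNA of the large subunit, had 964, 884, 1532 and 1086 reads. Per kb this was 621.9, 570.3, 988.4 and 700.6, below Rnr1 in each library and above every mRNA gene. The rRNA genes were also the most crowded: a read began at 87.5% of the positions of Rnr1 and 83.1% of those of Rnr2 in siGPS2, against 60.7% and 53.8% in siCTL. The 5 bins with the most reads over the 4 libraries all lay in them. The fullest was 651 to 700 in Rnr1, with 49, 44, 112 and 74 reads, and the third was 1801 to 1850 in Rnr2, with 47, 29, 96 and 78 reads. Both bins were fuller in either siGPS2 library than in either siCTL library.

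Read density fell before the end of Rnr2. Its last 30 positions held 10, 7, 4 and 2 reads, or 333.3, 233.3, 133.3 and 66.7 per kb. Before its last 200 positions Rnr2 had 638.2, 573.8, 993.5 and 701.9 reads per kb. The last 30 positions of Rnr1 were thin too, at 233.3, 266.7, 133.3 and 0 reads per kb. Before its last 200 positions Rnr1 had 792.1, 667.5, 1223 and 867.5. The last full bin of Rnr2 (2601 to 2650) held 30, 35, 55 and 46 reads. The next bin (2651 to 2700), which takes in the last bases of Rnr2 and the start of mt-Tl1, held 25, 22, 10 and 6. It was thus lower in each library, and by more in the siGPS2 pair. The bin after it (2701 to 2750) held 11, 12, 13 and 7 reads, so the siCTL pair had fallen there too. Across mt-Tl1 there were 27, 30, 20 and 12 reads, or 360, 400, 266.7 and 160 per kb. This was above the last 30 positions of Rnr2 in each library. The first bin of Nd1 held 28, 15, 25 and 9 reads. The bin at 2651 was also among the 3 lowest of the strand for siGPS2 against siCTL, at −0.91 without FCCP and −1.41 with FCCP (log2 ratio of scaled reads).

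**Figure D2:**
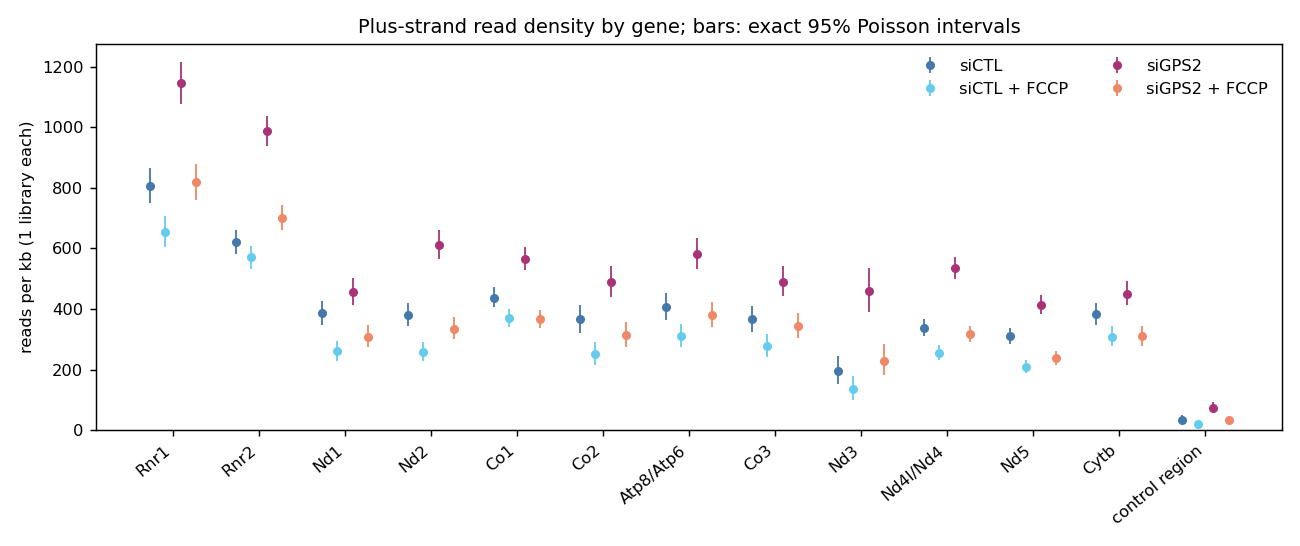
Plus-strand reads per kb (y axis) for each gene or gene pair and the control region (x axis, in order along the chromosome), 1 point per library with exact 95% Poisson intervals. Rnr1 and Rnr2 lie above every mRNA gene in each library, and the control region lies lowest.

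Complex I subunits are spread along the whole strand. Nd1 (2751 to 3707) had 385.3, 260, 456.8 and 308.4 reads per kb. Nd2 (3914 to 4951) had 381.9, 257.1, 611.4 and 335.2, and in siGPS2 it was the densest mRNA gene. Nd3 (9459 to 9806), the shortest, had 68, 47, 161 and 80 reads, or 194.3, 134.3, 460 and 228.6 per kb. It was the lowest mRNA gene in 3 libraries, and in siGPS2 its interval (391.7 to 536.8) overlapped those of most others. Nd4l and Nd4 (9877 to 11544), which overlap and share an mRNA, had 338.8, 255.8, 533.9 and 316.4, and Nd5 (11742 to 13565) had 309.4, 208.9, 413.9 and 237.2. Nd5 was the lowest mRNA gene in siGPS2 and the next lowest after Nd3 in the other 3 libraries.

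Complex IV was led by Co1 (5328 to 6872), its catalytic core subunit, with 438, 369.3, 564.7 and 366 reads per kb; it was the densest mRNA gene in both siCTL libraries. Co2 (7013 to 7696) had 365.7, 250, 488.6 and 314.3, and Co3 (8608 to 9390) had 366.2, 277.5, 490 and 345. Co2 and Co3, subunits of the same core, lay within each other's intervals in every library. Atp8 and Atp6 (7766 to 8607), the overlapping genes of 2 ATP synthase subunits, had 407.1, 309.4, 582.4 and 380. Cytb (14145 to 15288), the complex III subunit, had 383.5, 308.7, 450.4 and 310.4. It lies last on the strand and was denser than Nd5 before it in each library. Across the 10 mRNA genes or pairs, density fell only loosely with order along the strand: Spearman's rho was −0.52, −0.25, −0.50 and −0.33 (n = 10 genes of 1 library each, a description). The control region (from 15423 on) had 31, 18, 66 and 29 reads, or 34.5, 20, 73.4 and 32.3 per kb, far below every gene.

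A low score marked the middle of the strand. All reads of Co2, Atp8/Atp6 and Co3 were below 10 in all 4 libraries, and so were all of Nd3 but 2 reads of siCTL, so these 4 have no values at 10 or more. In Co1 the share below 10 was 63.4% to 69.4%, in Nd4l/Nd4 64.8% to 72.3%, and in Nd1 12.2% to 16.1%. Over the whole strand 95 of the 289 bins with at least 40 reads had more than 90% of their reads below 10, between 4801 and 13100. A stretch on the minus strand of chromosome 1 (mm8 chr1:24565858-24570452) held reads in mirror order to positions 6401 to 11000. RefSeq's table for build GRCm38.p6 lists a pseudogene with mt-Atp6 among its synonyms, Gm10925, on chromosome 1.

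That chromosome 1 stretch, found after the data were seen, held 1586, 1226, 2329 and 1539 reads, and the matching mitochondrial bins held 1592, 1214, 2379 and 1521. The counts were thus almost equal in each library, and at least 99.3% of the reads on either side had a score below 10. Over the 92 bins the Pearson correlation between them was 0.51 and 0.56 in the siCTL libraries and 0.98 and 0.90 in the siGPS2 libraries, as a description. Adding these reads at their mirrored positions raised the genes that lie wholly in the stretch: Co2 came to 704.3, 487.1, 970 and 620 reads per kb, and Atp8/Atp6 to 795.3, 600, 1162 and 749.4. Atp8/Atp6 was then denser than Rnr2 in each library, and in siGPS2 also denser than Rnr1 (1145). Co2 was denser than Rnr2 in siCTL, and Co3 in siCTL (687.5) and siCTL with FCCP (578.8). The rank of the rRNA genes over these mRNA genes thus holds for reads as placed in the files. Which of the 2 places the reads came from was not tested, so levels from the end of Co1 to Nd4 are given with this limit. Log2 ratios of single genes between libraries stayed within their intervals when the reads were added.

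**Figure D3:**
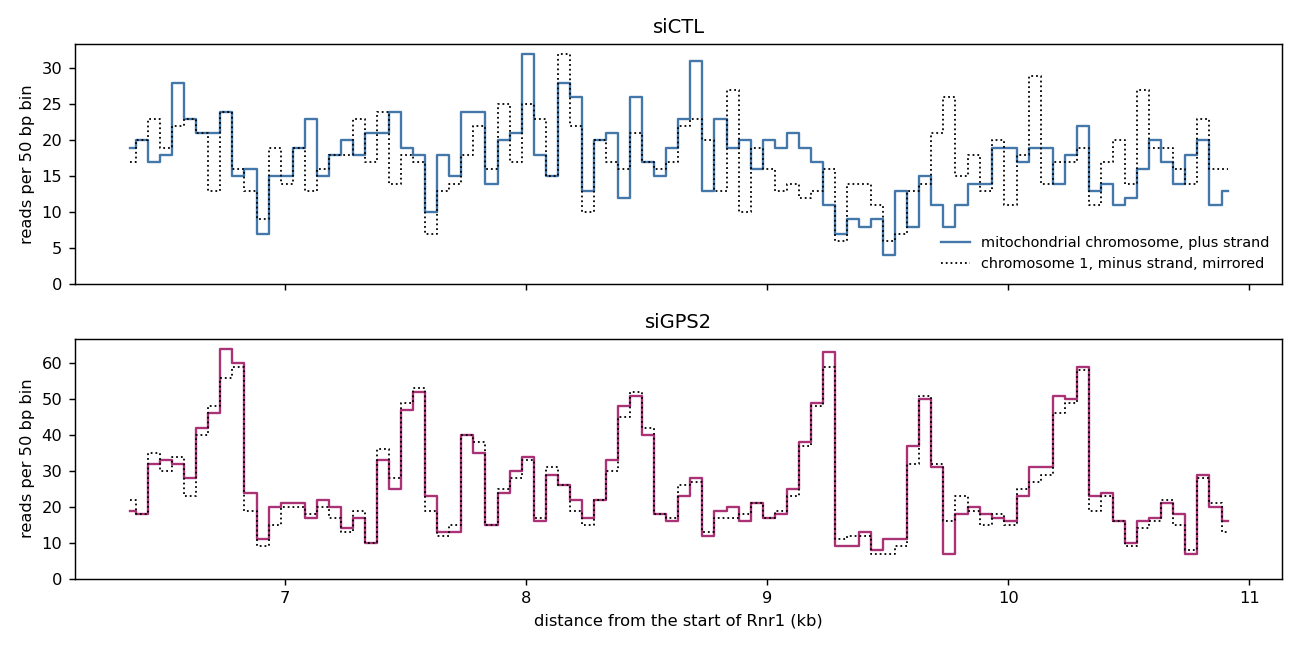
Reads per 50 bp bin (y axis) on the mitochondrial plus strand (solid) and, at mirrored positions, on the chromosome 1 minus strand (dotted), by distance from the start of Rnr1 in kb (x axis), in siCTL (top) and siGPS2 (bottom). The 2 lines lie at the same height in both libraries and almost coincide in siGPS2.

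FCCP libraries had fewer plus-strand reads at every gene. Comparisons between libraries use reads scaled by the median of ratios over 35361 strand-specific 10 kb windows, and are given as log2 ratios. On this scale the plus strand fell by 0.38 with FCCP in siCTL (interval −0.44 to −0.33) and in siGPS2 fell by 0.66 (−0.70 to −0.61). At a score of 10 or more the values were −0.34 and −0.64. The drop was thus larger in siGPS2, by −0.27 (−0.34 to −0.20). The ratios are relative to the genomic windows of each library, so they do not measure the number of cells. In bulk libraries, fewer mitochondria in the preparation and less RNA per mitochondrion cannot be told apart. The minus strand of the same chromosome, which codes Nd6 and several tRNAs, had ratios of −0.04 and −0.38. The plus strand was lower than the minus strand by 0.35 (interval of the difference −0.46 to −0.24) in siCTL and by 0.27 (−0.39 to −0.16) in siGPS2.

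**Figure D4:**
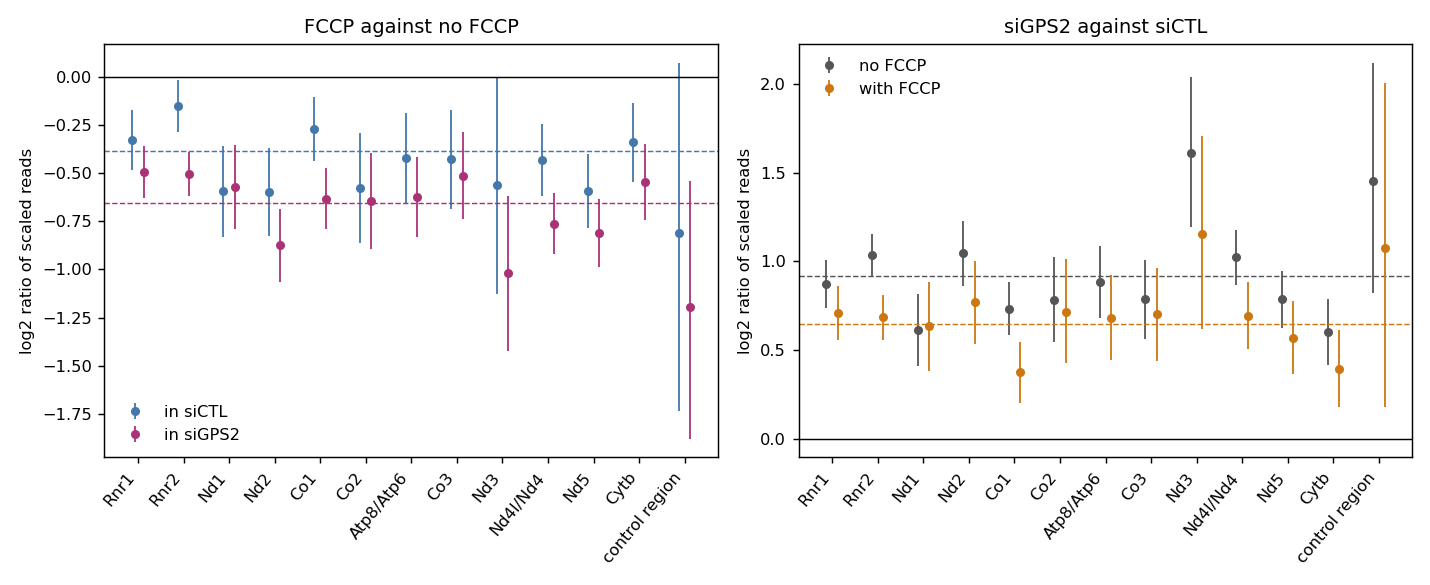
Log2 ratio of scaled reads (y axis) for each gene or pair and the control region (x axis), for FCCP against no FCCP in each siRNA (left) and siGPS2 against siCTL without and with FCCP (right), with 95% counting intervals; dashed lines give the whole plus strand. Every FCCP point lies below 0 and every siGPS2 point above 0, and the interval of 1 point, the control region with FCCP in siCTL, reaches past 0.

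Of the 12 genes or pairs and the control region, 12 had an interval wholly below 0 with FCCP in siCTL and 13 in siGPS2. Among 31815 genomic windows of 10 kb with read totals in the same range, 16.7% and 10.4% did so, while 16.2% and 8.66% had an interval above 0, as did none of the 13 members. Rnr2 changed least in siCTL, from 964 to 884 reads (−0.15, interval −0.29 to −0.02), but fell by 0.50 in siGPS2 (−0.62 to −0.39). Rnr1 had −0.33 and −0.49. The Rnr2 drop was larger in siGPS2 by −0.35 (−0.52 to −0.18), and that of Rnr1 by −0.16, whose interval (−0.37 to 0.04) includes 0.

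The mRNA genes fell by 0.46 with FCCP in siCTL (−0.52 to −0.39) and by 0.69 in siGPS2 (−0.75 to −0.63), more than the rRNA genes (−0.23 and −0.50). The difference between the classes was −0.23 (−0.35 to −0.11) in siCTL and −0.19 (−0.30 to −0.09) in siGPS2. In siGPS2 this order turns around, to 0.10, when counts are replaced by an estimate from the share of positions with a read, which allows for crowding; in siCTL it stays at −0.24. The order of rRNA and mRNA genes under FCCP thus held in siCTL under both counts, and in siGPS2 under the plain count alone.

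By complex, the 5 complex I genes or pairs together had −0.55 in siCTL and −0.78 in siGPS2, the 3 complex IV genes −0.37 and −0.60, Atp8/Atp6 −0.42 and −0.62, and Cytb −0.34 and −0.54. Complex I was the lowest class in both siRNAs. Within it, Nd1 had almost the same ratio in both (−0.59 and −0.57), as reads went from 366 to 247 and from 434 to 293. Nd2 had −0.60 and −0.87, Nd5 −0.59 and −0.81, and Nd4l/Nd4 −0.43 and −0.76. Nd3 went from 68 to 47 reads in siCTL (−0.56, interval −1.13 to −0.00), and siGPS2 went from 161 to 80 (−1.02, −1.42 to −0.62), the largest drop of the genes in siGPS2.

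On all reads, the FCCP response differed between the siRNAs beyond counting error at 3 of the 13 members, each with a lower ratio in siGPS2. Among genomic windows, 6.67% differed in that direction and 5.12% in the other. These were Rnr2, above, Co1 (−0.27 in siCTL and −0.63 in siGPS2, difference −0.36, interval −0.58 to −0.13) and Nd4l/Nd4 (difference −0.33, −0.57 to −0.09). For Co1 the reads went from 657 to 554 and from 847 to 549. At the other 10, intervals of the difference included 0, from Nd1 (0.02, −0.30 to 0.34) to Nd3 (−0.46, −1.12 to 0.20), so differences of these sizes were not detectable at this depth. At a score of 10 or more, Rnr2 kept its difference (−0.37, −0.57 to −0.16), while those of Co1 (−0.38, −0.77 to 0.01) and Nd4l/Nd4 (−0.24, −0.68 to 0.19) included 0. Rnr1 (−0.29, −0.53 to −0.05) and the control region (−1.67, −3.14 to −0.21) then lay wholly below 0. Which members differ thus depends on the reads used, except for Rnr2. The spread of FCCP ratios along the strand followed gene order weakly, with rho of −0.36 in siCTL and −0.55 in siGPS2 over the 13 members. In each rho over the members the control region was ranked last, although transcription starts there. It had the fewest reads and the lowest FCCP ratio in both siRNAs (−0.81 and −1.19), so part of these rho values rests on it.

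Bin by bin, the FCCP drop was a shift of most of the strand. Of the 289 bins with at least 40 reads, 109 (37.7%) were at least 1.5-fold lower in siCTL and 2 (0.692%) higher, against 30.3% lower and 18.6% higher among 13094 bins of the genome with as many reads. In siGPS2, 157 (54.3%) were lower and 0 higher, against 33.7% and 2.58%. The siCTL share of lower bins was close to that of these genomic bins, and the strand differed there mainly in its lack of higher bins. The median bin had −0.43 (quartiles −0.73 and −0.12) in siCTL and −0.63 (−0.89 and −0.40) in siGPS2, and 242 and 280 of the 289 lay below 0. The median of the 13094 genomic bins was −0.21 and −0.43, so crowded bins elsewhere were also lower with FCCP, and more so in siGPS2. The exceptions were thin: the 2 higher bins in siCTL were 9351 to 9400 at the end of Co3, with 7 and 15 reads, and 13501 to 13550 in Nd5, with 8 and 16. The lowest bins were 9751 to 9800 in Nd3 in siCTL (11 to 3 reads, −1.74) and 5251 to 5300 before Co1 in siGPS2 (20 to 5 reads, −1.91).

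After scaling by the genomic windows, the siGPS2 libraries had more plus-strand reads than the siCTL libraries at every gene. In raw reads Co1 was the exception, with 554 in siCTL and 549 in siGPS2 when FCCP was present. The strand was higher by 0.92 on the log2 scale without FCCP (0.87 to 0.97) and by 0.65 with FCCP (0.59 to 0.70). At a score of 10 or more the values were 0.96 and 0.66. Scaled by total reads they were 0.55 and 0.26, since the genomic windows put the siGPS2 libraries lower than their totals do. The minus strand had 0.16 and −0.19, so the plus strand was higher than the minus strand by 0.76 (0.65 to 0.87) and 0.83 (0.71 to 0.95), a difference that needs no scale between libraries. All 13 members had intervals above 0 in both comparisons, against 22.6% and 21.2% of genomic windows, of which 25.7% and 25.9% had an interval below 0. Scaled by total reads, 13 and 8 members kept it, against 11.3% and 9.9% of windows. With FCCP, Nd1 (0.25, low bound −0.0028), Co1 (−0.013), Nd5 (0.18), Cytb (0.0081) and the control region (0.69) then had intervals that reach below 0. At a score of 10 or more, Co1 with FCCP (0.21, −0.09 to 0.50) and the control region with FCCP did not hold either. In 50 bp bins, 177 of 289 (61.2%) were at least 1.5-fold higher without FCCP and 132 (45.7%) with FCCP, below the 80.5% and 77.4% of genomic bins with as many reads. Lower bins numbered 6 (2.08%) and 11 (3.81%), against 4.12% and 5.01%. By that measure siGPS2 libraries had a smaller share of higher bins on the strand than over the genome.

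Nd3 had the largest gene ratio of siGPS2 to siCTL, 1.61 (1.19 to 2.04) without FCCP and 1.15 (0.62 to 1.71) with FCCP. Without FCCP, Nd2 had 1.05, Rnr2 1.03 and Nd4l/Nd4 1.02, Rnr1 and Atp8/Atp6 0.87 and 0.88, Co1 0.73 and Cytb 0.60. With FCCP, Nd2 had 0.77 and Rnr1 0.71, while Co1 (0.37) and Cytb (0.39) were the lowest. Cytb was among the 2 lowest of the 13 in both comparisons. The control region rose from 31 to 66 reads without FCCP (1.46, 0.82 to 2.12), and had 18 and 29 reads with FCCP (1.07, 0.18 to 2.01), but at a score of 10 or more its reads with FCCP went from 15 to 9. The ratios followed gene order neither without nor with FCCP (rho of 0.07 and 0.02 over 13).

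Much of the siGPS2 excess over mRNA genes lay in their last 200 positions. This split was made after the data were seen. Over the 10 mRNA genes or pairs, the last 200 positions held 687 reads in siCTL, 521 in siCTL with FCCP, 1614 in siGPS2 and 968 in siGPS2 with FCCP. Per kb this was 343.5, 260.5, 807 and 484, against 370.7, 275.7, 441.5 and 280 in the rest of each gene. Ends were thus level with bodies in the siCTL libraries (ratios 0.927 and 0.945, intervals 0.852 to 1.01 and 0.858 to 1.04) and well above them in the siGPS2 libraries (1.83, 1.72 to 1.94, and 1.73, 1.60 to 1.86). The end was denser than the body in 10 of 10 in both siGPS2 libraries and in 3 and 4 of 10 in the siCTL libraries. Nd5 went both ways, with ratios of 0.82 in siCTL, 1.37 in siCTL with FCCP, 1.12 in siGPS2 and 1.25 in siGPS2 with FCCP. Every other mRNA gene or pair had a higher ratio in siGPS2 than in siCTL, without and with FCCP. In Rnr1 and Rnr2 together the ratio was 0.953, 0.877, 0.787 and 0.812. The rRNA genes went opposite ways: Rnr1 had 1.04, 0.86, 0.67 and 0.67, and Rnr2 had 0.78, 0.85, 0.88 and 0.93. The Rnr2 ratio was thus higher in siGPS2 than in siCTL, without and with FCCP. In both rRNA genes the end stayed less dense than the body in the siGPS2 libraries.

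**Figure D5:**
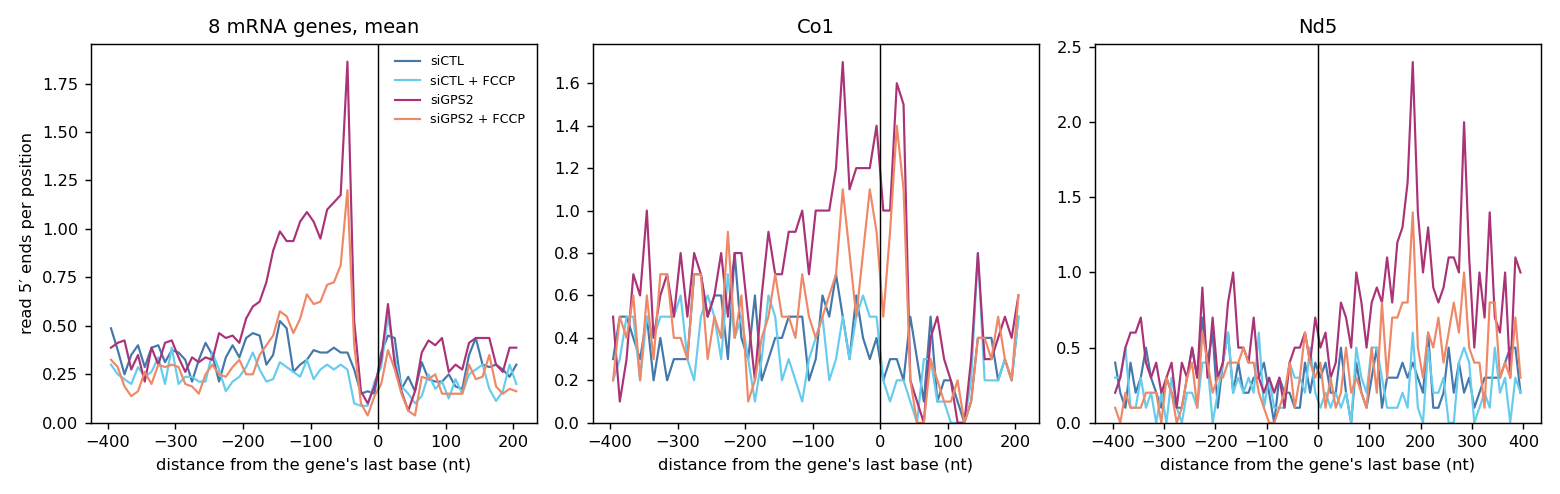
Read 5′ ends per position (y axis) in steps of 10 nt by distance from the last base of the gene (x axis, negative inside the gene): mean of 8 mRNA genes or pairs (left), Co1 (middle) and Nd5 (right), 1 line per library. Both siGPS2 lines climb over the last 200 nt of the 8 genes and drop after 41 nt before the end, whereas the siCTL lines stay flat until then.

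The ends of mRNA genes were higher in siGPS2 than in siCTL by 1.60 (1.47 to 1.73) without FCCP and 1.28 (1.13 to 1.44) with FCCP. The bodies differed by 0.62 (0.55 to 0.69) and 0.41 (0.33 to 0.49), and on the scale of total reads by 0.25 and 0.02. Ends exceeded bodies by 0.98 (0.83 to 1.13) and 0.87 (0.70 to 1.05), which needs no scale between libraries and was 1.06 and 0.81 at a score of 10 or more. Under FCCP, ends and bodies moved alike: the difference was 0.03 (−0.15 to 0.21) in siCTL and −0.08 (−0.22 to 0.06) in siGPS2. In siGPS2 the estimate that allows for crowding gave −0.32. The difference with FCCP is one between libraries of 1 lane.

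Per gene, the ratio of end to body density in siGPS2 without and with FCCP ran from Nd5, at 1.12 and 1.25, up to Nd1, at 2.99 and 2.88, and Nd3, at 2.98 and 5.18. Nd1 had 69, 58, 193 and 128 reads in its last 200 positions and 300, 190, 244 and 168 before them. Its body was thus no denser in siGPS2 than in siCTL before scaling. Nd4l/Nd4 had 82, 55, 200 and 116 reads at the end, and Co3 58, 45, 164 and 101. Nd3 is so short that 148 positions remain as its body, with 23, 26, 32 and 10 reads. Its body ratio of siGPS2 to siCTL was 0.84 (0.03 to 1.68) without FCCP and −0.99 (−2.21 to 0.11) with FCCP. Its end had 1.89 (1.39 to 2.41) and 2.12 (1.40 to 2.90), higher than its body in both.

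The position of the pile-up was shared. In the 8 genes or pairs other than Co1 and Nd5, the 10 nt from 50 to 41 before the last base, in capitals above, held 29, 22, 149 and 96 reads, or 0.36, 0.28, 1.86 and 1.2 per position and gene. From 400 to 391 before the end the same step held 39, 24, 31 and 26 reads. In raw reads siGPS2 was thus lower than siCTL there without FCCP, and near it with FCCP. After scaling, the bodies of the 10 mRNA genes or pairs were higher in siGPS2, by 0.62 without FCCP and 0.41 with FCCP. From 200 to 191 it held 35, 23, 43 and 20. Reads then fell: 30 to 21 before the last base there were 12, 7, 13 and 8, and 20 to 11 before it 13, 7, 8 and 3. In all 4 libraries this dip was below every 10 nt step from 400 to 201 before the end. Between 81.9% and 86.4% of plus-strand reads were 50 bases long, so a read that began inside the dip would run past the annotated end. From 10 to 19 past the end the counts were 36, 44, 49 and 30, above the median of the 10 nt steps from 400 to 201 before the end in each library, and above the highest of them in each library but siCTL.

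Co1 and Nd5 set their pile-ups apart from the annotated end. In Co1 the siGPS2 libraries kept 10 to 17 and 5 to 11 reads per 10 nt from 60 nt before the last base to 9 nt after it. They still held 15 and 11 reads at 30 to 39 nt past the end, inside the complement of mt-Ts1 shown above, and 2 and 2 in the next 10 nt. In the same steps siCTL had 2 and 5 reads and siCTL with FCCP 2 and 1. The stretch from Co1 to Co2 (6873 to 7012) held 31, 19, 71 and 51 reads in all. In Nd5 the highest step lay 180 to 189 nt past the gene, with 4, 6, 24 and 14 reads.

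That peak belongs to the stretch from Nd5 to Cytb (13566 to 14144), where the plus strand is the antisense of Nd6, the one mRNA gene of the other strand. This stretch held 156, 128, 528 and 274 reads, or 269.4, 221.1, 911.9 and 473.2 per kb. In siGPS2 it was nearly as dense as Rnr2, while in the siCTL libraries it was below most mRNA genes. Its bin at 13701 to 13750 held 16, 9, 71 and 42 reads, a log2 ratio of 2.55 for siGPS2 against siCTL with FCCP. The other highest bins for siGPS2 without FCCP were 9301 to 9350 near the end of Co3 (11 and 63 reads, 2.83), 13951 to 14000 in the same antisense stretch (11 and 51, 2.53) and 9651 to 9700 in Nd3 (8 and 37, 2.51). With FCCP they were 9751 to 9800 in Nd3 (3 and 22, 3.07) and 3651 to 3700 at the end of Nd1 (7 and 33, 2.55). All 6 highest bins lay in the last 200 positions of a gene or in the Nd6 antisense stretch. Both places were chosen after these data were seen, and their share of all tested bins was not counted, so this is a description.

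Peaks inside genes were also seen in the siGPS2 libraries. In Nd4l/Nd4, the bins 10251 to 10300, 10301 to 10350 and 10351 to 10400 held 51, 50 and 59 reads in siGPS2 and 34, 28 and 29 with FCCP, against 14, 18 and 22 in siCTL and 15, 14 and 23 in siCTL with FCCP. In Nd5 the bin 12551 to 12600 held 23, 11, 47 and 37. The variance of bin counts within a gene, divided by their mean, was 0.66 to 1.63 in the genes of the siCTL libraries, near the value of 1 that random placement gives, and 2.70 to 11.6 in the siGPS2 libraries. Each bin was divided by the mean of its gene, with the control region, and all bins between genes, each treated as a gene. The 326 bins then correlated between the siGPS2 libraries with Pearson's r of 0.77 and between the siCTL libraries with 0.51. Pairs across the siRNAs gave 0.21 to 0.23. Bins were thus more alike within an siRNA than across it, which includes the siCTL pair, which spans both runs. These values also hold differences in level among the stretches between genes. Bins of genes alone were not correlated, so a fine pattern within genes was not tested.

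Short stretches with tRNA genes did not all follow the mRNA genes. The stretch before Rnr1 (1 to 69), which is the tRNA gene mt-Tf, had 55, 42, 47 and 31 reads, as dense as Rnr1 in siCTL (797.1 per kb) and less dense in siGPS2 (681.2 per kb). Between Nd4l/Nd4 and Nd5 (11545 to 11741) there were 56, 37, 42 and 25 reads, and between Co2 and Atp8/Atp6 (7697 to 7765) 22, 19, 17 and 9. In these 3 stretches, and in mt-Tl1, siGPS2 held fewer raw reads than siCTL without FCCP, whereas each of the 13 members held more. From Co3 to Nd3, and from Nd3 to Nd4l/Nd4, siGPS2 held 12 reads and siCTL 13. Scaling by the genomic windows raises siGPS2 relative to siCTL, and scaled ratios of these stretches are not given. The stretch from Nd2 to Co1 (4952 to 5327), with a cluster of tRNA genes on the other strand, had 88, 61, 120 and 48.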

How the data were processed

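GRO-seq reads came from 4 libraries, 1 per group. The authors deposited BED lines, 1 for each aligned read, that hold its place, its strand and a score (0 to 42). The submitters' processing notes name Bowtie, HOMER and build mm8 with no versions, and further steps are not stated there. The score that the authors deposited was taken for mapping quality. The read lines carry 4199999 to 4200001 reads per library and no 2 reads with equal start, end and strand, so they were taken to be reads left after duplicates were removed and depth evened, and original depths are unknown. In 3 libraries 1 malformed line was dropped.

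Reads were counted by 5′ end in 50 bp bins, given to genes by bin centre, and scaled by the median of ratios over 10 kb windows that held 20 or more reads in each of the 4 (factors 1.129, 1.15, 0.8756 and 0.88). Ratios carry exact conditional binomial intervals and levels exact Poisson intervals; differences of log2 ratios carry Wald intervals. These cover counting error only, since reads have no molecular identifiers. Bins needed 40 reads over the 4 libraries, and 0.5 was added to each bin count. Named were all members, the 5 fullest bins, and the 3 highest and 3 lowest bins of each comparison, from which examples are printed; gene ends, stretches and other bins were chosen after their values were seen. Members and lists were chosen with earlier results of these data known. Gene bounds equal GENCODE's (GRCm38) at 11 of 12 starts and 12 of 12 ends; identity of the bases with mm8 was not checked, so sequences were taken by gene name. Nuclear genes, Gps2 included, were not analysed here. The counting was tested on simulated data. Python 3.11.15, NumPy 2.4.6, SciPy 1.17.1 and pandas 2.3.3 were used.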

Additional observations from a re-analysis of the deposited data

How the results depend on the processing

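No paired analysis was possible because each group is 1 library. The 4 comparisons and the difference of the FCCP responses kept their direction under every alternative tried. Values of the whole strand left the counting interval as follows. Correction for crowded positions gave −0.87 for FCCP in siGPS2, 1.16 and 0.72 for siGPS2 without and with FCCP, and −0.44 for the difference. Gene bodies gave −0.60, 0.75 and 0.52 for the same 3 comparisons. Scaling by total reads gave 0.55 and 0.26 for siGPS2, scaling on reads with a score of 10 or more 1.06 and 0.80, and the highest score 0.98 without FCCP. For single genes the sign turned for Co1 in siGPS2 with FCCP by total reads (−0.013), for Nd3 bodies with FCCP in siCTL (0.15) and in siGPS2 with FCCP (−0.99), and for the control region in siGPS2 with FCCP at a score of 10 or more (−0.35).

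The mRNA minus rRNA difference under FCCP in siGPS2 turned to 0.10 with the crowding correction. For siGPS2 without FCCP it was −0.32 at a score of 10 or more, −0.44 at the highest score, −0.64 with the correction, −0.019 without the 5% fullest bins and −0.38 in bodies. With FCCP it was −0.25 at the highest score, −0.29 with the correction, 0.053 without the fullest bins and −0.30 in bodies. Ends minus bodies gave 0.22 for FCCP in siCTL at a score of 10 or more, and −0.32 for FCCP in siGPS2 and 1.34 for siGPS2 with the correction. Plus minus minus strand gave −0.48 for FCCP in siGPS2 and 1.02 for siGPS2 with the correction. The rRNA share at a score of 10 or more was 36.1%, 40.4%, 39.9% and 43.6%, since Co2 to Nd3 drop out, and rho with gene order −0.18, −0.73 and −0.65 (FCCP in siCTL, FCCP in siGPS2, siGPS2 with FCCP). The cause was not tested.

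Counts of bins (FCCP in siCTL lower, FCCP in siGPS2 lower, siGPS2 higher without and with FCCP) were 34, 63, 108 and 84 of 130 bins at a minimum of 80 reads, 47, 84, 94 and 67 of 147 bins of 100 bp, 22, 53, 105 and 67 past 2-fold, and 49, 87, 108 and 89 of 168 bins at a score of 10 or more. In the other direction they were 0, 0, 0 and 0, then 0, 0, 1 and 0, then 1, 0, 0 and 3, then 4, 1, 4 and 6. Scaling by total reads gave 112 higher and 15 lower without FCCP and 69 higher and 29 lower with FCCP. Gene bodies, the chromosome 1 reads and the alternatives for class, end and strand differences were chosen after seeing the data. With 1 library per group, variation between cultures is unknown, and removed duplicates leave the most crowded positions least precise.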
